A study of Mus musculus with 5 samples.

Results

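Histone H3 acetylated at lysine 27 (H3K27ac) was examined at the genes of 8 enzymes that add or remove methyl groups on lysine 36 of the same histone: Setd2, Nsd1, Ash1l, Kdm2a, Kdm2b, Kdm4a, Kdm4b and Kdm4c. The members were chosen by name and position, not by signal, although earlier results of these data were known at the time. Every merged H3K27ac peak that overlapped the annotated span of one of these genes, extended by 5 kb on each side, was taken, which gave 140 of the 124158 peaks in the table. Of these, 19 lay within 3 kb of a start of a protein-coding transcript of the gene (promoter peaks), 106 lay elsewhere inside the gene (gene body peaks) and 15 lay in the flanks. Some flanking peaks lie at starts of neighbouring genes, such as Prelid1 beside Nsd1 and St3gal3 beside Kdm4a, and remain in the peak counts below.

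The cells were regulatory T (Treg) cells sorted from the large intestine of C57BL/6 mice at 2 weeks of age, with female and male mice pooled. Control (Ctrl) cells had the genotype Foxp3CreSetd2flox/+ and knockout (KO) cells the genotype Foxp3CreSetd2flox/flox, with 2 libraries in each group. Each library was made from 60000 cells sorted from a pool of 3 to 5 mice, which the study's methods describe as littermates. Foxp3 drives the Cre recombinase, so deletion follows Foxp3 expression, and Cre and at least one floxed allele were shared by both groups. The Ctrl cells, titled WT in the sample names, are therefore heterozygous for the deletion and not wild type. H3K27ac was profiled by CUT&Tag, in which an antibody tethers a transposase that cuts and tags the DNA around the marked nucleosome. The libraries held 2395002 and 3630447 counts in peaks (Ctrl 1 and Ctrl 2) and 3007444 and 4712473 counts (KO 1 and KO 2). All values below are these counts, or counts per 1000000 (CPM) after scaling of the libraries. The p-values of the tools edgeR and DESeq2 set a group difference against the spread between the 2 libraries of a group. That spread was estimated with information shared across all tested peaks or genes, and it is between pools of mice and not single mice.

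Methylation of H3K36 marks transcribed chromatin. SETD2 travels with elongating RNA polymerase II and places the trimethyl mark along gene bodies, whereas NSD1 and ASH1L place the mono- and dimethyl marks. KDM2A and KDM2B bind unmethylated CpG islands and remove the lower methylation states, and KDM4A, KDM4B and KDM4C remove the higher states from H3K36 and also act on H3K9. H3K27ac is a different mark, found at active promoters and enhancers, so the values here describe the activity state of the genes for these enzymes and not the H3K36 mark itself.

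The sequence just upstream of the transcription starts is shown first, because starts of the same gene differed in their H3K27ac. Each window is the 250 bases before a start, printed 5′ to 3′ on the gene's strand, with CG dinucleotides in capitals. Windows at the named starts are from RefSeq (GRCm38.p6, the assembly called mm10), whose table held 8 windows for 4 of the 8 genes, and the windows at starts inside Kdm4a and Kdm2b were read from the same assembly. Setd2 has its window at chr9:110532347-110532596 on the plus strand, inside its promoter peak:
Setd2 start: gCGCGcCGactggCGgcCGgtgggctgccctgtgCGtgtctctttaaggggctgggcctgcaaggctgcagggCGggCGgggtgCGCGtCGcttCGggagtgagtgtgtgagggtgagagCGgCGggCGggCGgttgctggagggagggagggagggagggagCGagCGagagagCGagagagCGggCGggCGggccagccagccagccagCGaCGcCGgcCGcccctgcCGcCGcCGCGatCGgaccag

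This window held 31 CG dinucleotides and 76.0% GC, and 94.8% of the 32817 mouse promoter windows of the same length held fewer CG. The median window held 6 CG and 52.4% GC. The GC box GGGCGG, the site recognised by Sp and KLF factors, matched 7 times over both strands in the Setd2 window, and 32.7% of all windows held at least one match. No match was found there for the Ets motif CCGGAAG, the NF-Y motif CCAAT, the TATA box TATAAA, the CRE motif TGACGTCA, the AP-1 motif TGANTCA or the palindromic NRF1 motif. Both strands were searched in each case, and the CRE and AP-1 motifs share their outer bases. Over all windows these motifs matched in 6.9%, 33.8%, 12.4%, 1.55%, 6.75% and 0.777%, in that order.

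Kdm4c has a first start without a peak and a second start, 9.4 kb into the gene, under its only promoter peak. The first window is at chr4:74242247-74242496 and the second at chr4:74251629-74251878, both on the plus strand:
Kdm4c first start, no peak: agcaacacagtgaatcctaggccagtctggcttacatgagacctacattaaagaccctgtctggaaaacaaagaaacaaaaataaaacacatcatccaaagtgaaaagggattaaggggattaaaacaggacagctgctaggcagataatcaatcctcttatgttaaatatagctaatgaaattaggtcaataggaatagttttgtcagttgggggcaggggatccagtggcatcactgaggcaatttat
Kdm4c second start, in a peak: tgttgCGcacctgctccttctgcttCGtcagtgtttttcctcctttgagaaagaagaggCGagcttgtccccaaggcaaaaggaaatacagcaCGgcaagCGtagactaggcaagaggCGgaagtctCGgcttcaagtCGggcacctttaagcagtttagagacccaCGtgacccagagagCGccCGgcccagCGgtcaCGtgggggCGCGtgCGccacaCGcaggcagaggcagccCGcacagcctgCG

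The window without a peak held 0 CG dinucleotides and 39.6% GC, whereas the window in the peak held 19 CG and 60.4% GC. CG content alone did not separate the starts with and without a peak. A start 89.5 kb into Kdm2b lies in no peak, and its window at chr5:122900368-122900617 on the minus strand is the most CG-rich printed here:
Kdm2b start deep in the gene, no peak: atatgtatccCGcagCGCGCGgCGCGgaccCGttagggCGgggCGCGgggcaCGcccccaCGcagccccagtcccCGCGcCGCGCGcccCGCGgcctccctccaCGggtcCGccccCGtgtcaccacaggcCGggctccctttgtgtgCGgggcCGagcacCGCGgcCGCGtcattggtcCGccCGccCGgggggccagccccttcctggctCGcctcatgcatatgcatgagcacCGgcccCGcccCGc

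It held 36 CG dinucleotides, 78.0% GC and 5 matches of GGGCGG, and 97.4% of all windows held fewer CG. It also held 1 match of CCAAT, which 33.8% of all windows share. The windows at the 5′ start of Kdm4a, at chr4:118180044-118180293, and at a start 18.4 kb inside it, at chr4:118161658-118161907, are given because the peak over the inner start had the smallest unadjusted p of all 90 tested member peaks. Both are on the minus strand:
Kdm4a 5′ start: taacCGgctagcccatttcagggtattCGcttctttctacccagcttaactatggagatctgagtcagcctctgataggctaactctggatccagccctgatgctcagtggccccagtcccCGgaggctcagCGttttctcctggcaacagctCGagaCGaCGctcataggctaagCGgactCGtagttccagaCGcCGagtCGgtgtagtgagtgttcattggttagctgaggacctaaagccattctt
Kdm4a inner start: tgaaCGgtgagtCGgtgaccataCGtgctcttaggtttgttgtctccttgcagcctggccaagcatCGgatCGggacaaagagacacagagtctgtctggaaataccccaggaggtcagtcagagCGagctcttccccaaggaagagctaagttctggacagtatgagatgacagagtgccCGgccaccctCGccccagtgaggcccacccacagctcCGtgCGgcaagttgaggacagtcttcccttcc

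These windows held 12 and 10 CG dinucleotides, both above the median window of 6. The 5′ window held 1 CCAAT match and 1 match of the AP-1 motif TGANTCA, which 6.75% of all windows hold, and the inner window matched none of the 7 motifs. The last window belongs to the inner start of Kdm2b under its largest gene body peak, at chr5:122952507-122952756 on the minus strand:
Kdm2b inner start: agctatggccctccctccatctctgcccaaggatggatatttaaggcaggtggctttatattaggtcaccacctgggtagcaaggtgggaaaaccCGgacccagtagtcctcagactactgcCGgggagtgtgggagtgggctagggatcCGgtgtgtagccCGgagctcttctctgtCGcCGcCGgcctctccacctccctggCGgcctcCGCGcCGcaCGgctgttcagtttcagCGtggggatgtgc

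It held 13 CG dinucleotides and 1 match of TATAAA, found in 12.4% of all windows. The matches describe letters in these windows and say nothing of whether a factor was bound.

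Setd2 (ENSMUSG00000044791.16, chr9:110532597-110618633 in mm10, plus strand) had 13 peaks: 1 promoter peak, 9 gene body peaks and 3 peaks beyond its 3′ end. The promoter peak (chr9:110531954-110533963, 2010 bp, spanning the first exon) read 26.2 and 25.0 CPM in Ctrl 1 and Ctrl 2 and 27.2 and 33.3 CPM in KO 1 and KO 2. Both KO libraries were above both Ctrl libraries, by a small margin, and the group means were 25.6 ± 0.878 and 30.3 ± 4.32 CPM (SD, n = 2). With the promoter counts of all genes fitted together, the log2 fold change of KO over Ctrl was 0.25 with a standard error (SE) of 0.32 and an adjusted p of 1.0 in edgeR's quasi-likelihood test. H3K27ac at the Setd2 promoter was thus not detectably different between the groups. The exons removed by the floxed allele are not named in the sources used here, so no peak could be used as a check of the deletion.

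The gene body peaks of Setd2 held few counts until the wider peaks near its 3′ end. Per kb of peak those were no denser, with means of 8.19, 7.02 and 4.94 CPM for peaks 8, 9 and 10 against 9.39 for peak 2. Peak 2, in the intron 4.1 kb from the start, held 5, 12, 10 and 12 counts in Ctrl 1, Ctrl 2, KO 1 and KO 2, and peak 3, at 39.2 kb, held 2, 11, 2 and 10. Peak 4, at 61.6 kb, overlaps the start of a retained-intron transcript of Setd2 and held 4, 9, 4 and 17 counts. Peak 5, beside it at 62.2 kb, held 7, 11, 2 and 3. Peaks 4 and 5 were below the minimum of 10 counts in 2 libraries and were not tested, as was peak 7, at 77.5 kb, with 2, 19, 6 and 9 counts. Peak 6, at 74.0 kb, held 14, 11, 0 and 7 counts and passed the minimum only through the Ctrl libraries, with a log2 fold change of -2.31 (SE 1.22, adjusted p of 0.998 in edgeR).

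The last 3 gene body peaks of Setd2 lie close to its 3′ end, and the strongest of them were high in a single Ctrl library. Peak 8, at 83.4 kb, read 3.17 CPM in Ctrl 1, 19.0 CPM in Ctrl 2, 6.71 CPM in KO 1 and 6.23 CPM in KO 2. Peak 10, at 85.8 kb, read 4.07, 11.3, 1.86 and 4.55 CPM. In both peaks Ctrl 2 was the highest library, while Ctrl 1 lay below both KO libraries in peak 8 and between them in peak 10. Peak 9, at 84.5 kb, read 2.71, 7.14, 1.12 and 7.43 CPM and followed the replicate number and not the genotype. Beyond the 3′ end, towards the neighbouring gene Nradd, peaks 11, 12 and 13 had log2 fold changes of -1.70, -0.59 and -0.88, with SEs of 0.98, 1.01 and 0.80. Peaks 12 and 13 lie 2394 and 587 bp from a start of Nradd and were classed as its promoter peaks in the gene sums.

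Summed over its gene body, Setd2 read 25.3 and 59.2 CPM in Ctrl and 18.6 and 32.1 CPM in KO. The groups overlapped, because KO 2 exceeded Ctrl 1. This gave -0.74 on the log2 scale (SE 0.43; adjusted p of 0.608 in edgeR). Without Ctrl 2 the log2 fold change was 0.02, a fit that sets Ctrl 1 alone against both KO libraries. Number 2 was above number 1 in each genotype. Within each number KO was lower, at 18.6 against 25.3 and 32.1 against 59.2 CPM, although the labels do not say that equal numbers are paired. Promoter and gene body together gave 51.6, 84.2, 45.8 and 65.4 CPM, a log2 fold change of -0.29 (SE 0.32), which was 0.12 without Ctrl 2.

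**Figure D1:**
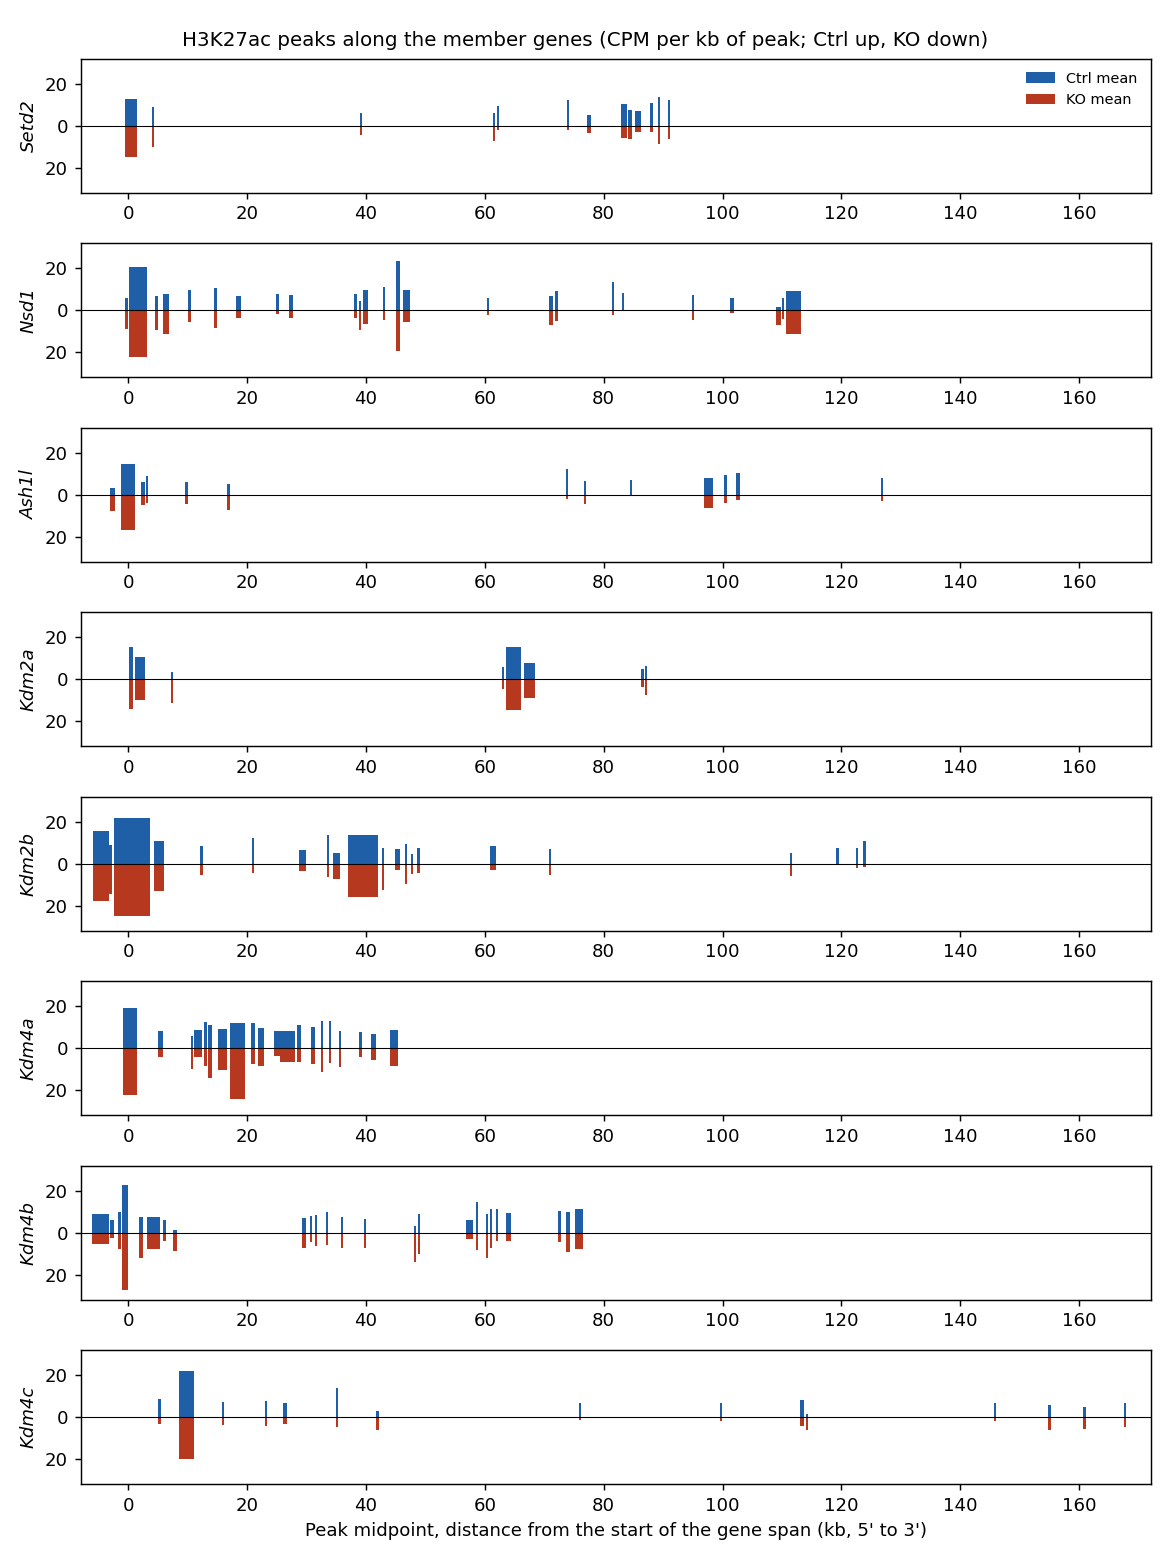
H3K27ac along the 8 genes, each drawn from its own start. Bars give the mean CPM per kb of peak of the 2 Ctrl libraries (up) and the 2 KO libraries (down) against the distance of the peak midpoint from the gene start in kb; bar width is the peak width, with a minimum width so that narrow peaks can be seen. The inner peak of Kdm4a at 18.4 kb is taller in KO, and Kdm4c has its promoter peak 9.8 kb into the span.

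The other methyltransferases carried their strongest counts at CpG-dense promoters as well. Nsd1 (ENSMUSG00000021488.8, chr13:55209782-55318325, plus strand) had 3 promoter, 19 gene body and 3 flanking peaks. Its main promoter peak (chr13:55210010-55212979, 9.73 CG per 100 bp) begins downstream of the first start and covers later protein-coding starts of the gene. It read 52.0 and 69.0 CPM in Ctrl and 53.7 and 79.5 CPM in KO, so that the groups overlapped. The gene body read 76.9 and 119 CPM in Ctrl and 52.9 and 81.2 CPM in KO, again with overlap, and had a log2 fold change of -0.55 (SE 0.33) with an adjusted p of 0.626 in edgeR. Without Ctrl 2 it was -0.18. Of its 10 tested gene body peaks, 9 were lower in KO and none was called, where 42.9% of all tested gene body peaks were higher. Its richest gene body peak (chr13:55254888-55255515, in an intron 45.4 kb from the start) reached 21.5 CPM per kb, as dense as the main promoter peak at 21.4, and held 0.32 CG per 100 bp.

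Ash1l (ENSMUSG00000028053.13, chr3:88950622-89079375, plus strand) shares its main promoter peak (chr3:88949352-88951799) with the start of the divergent gene Dap3, and counts there cannot be divided between the 2 genes. That peak read 28.0 and 43.7 CPM in Ctrl and 29.1 and 53.0 CPM in KO. The replicate numbers were further apart than the genotypes. Of the 5 promoter peaks of Ash1l, 3 lay nearer to a start of Dap3 and were counted for Dap3 in the fit over all genes, so that the promoter sums of Ash1l used below hold 2 peaks. The gene body of Ash1l read 22.6 and 44.9 CPM in Ctrl and 13.8 and 19.6 CPM in KO. Both KO libraries were below both Ctrl libraries, by -1.01 on the log2 scale (SE 0.47; adjusted p of 0.516 in edgeR). Its 8 gene body peaks were thin. Only the peak at 97.6 kb passed the count minimum, with 11, 58, 21 and 44 counts, and it showed a log2 fold change of -0.30. That peak lies 155 bp from a start of the non-coding gene Gm24403. Without Ctrl 2, the gene body log2 fold change of Ash1l was -0.42.

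The CpG island demethylases differed in where their H3K27ac lay. Kdm2a (ENSMUSG00000054611.17, chr19:4314419-4398285, minus strand) had only 2 promoter and 4 gene body peaks. Its promoter read 27.1 and 31.2 CPM in Ctrl and 17.5 and 37.4 CPM in KO, the widest ratio between the KO libraries among the members' promoters, and the log2 fold change was -0.07 (SE 0.38). An inner peak was above the summed promoter in 3 of the 4 libraries, the exception being Ctrl 1: the peak at chr19:4332310-4334720, 64.8 kb into the gene, read 23.1 and 51.5 CPM in Ctrl and 25.0 and 45.8 CPM in KO. It covers the annotated starts of Kdm2a-212, a protein-coding transcript, and Kdm2a-210. The log2 fold change there was -0.08 (SE 0.33), and the number 2 library was above the number 1 library in both genotypes.

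Kdm2b (ENSMUSG00000029475.17, chr5:122870665-122989823, minus strand) had the largest promoter domain of the 8 genes. Its main promoter peak (chr5:122986254-122992228) was 5975 bp wide and read 113 and 145 CPM in Ctrl and 125 and 175 CPM in KO, with overlapping groups and a log2 fold change of 0.22 (SE 0.27). The peak also covers a start of the non-coding gene A930024E05Rik, and counts there cannot be divided between the genes. A second broad domain lay 39.5 kb into the gene (chr5:122947764-122952898, 5135 bp) over the starts of Kdm2b-213, Kdm2b-214 and Kdm2b-215. It read 58.8 and 81.2 CPM in Ctrl and 72.7 and 89.6 CPM in KO, also with overlap. This domain held between 47.6% and 59.1% of the gene body counts of Kdm2b, depending on the library. A smaller gene body peak (chr5:122983724-122985480) over the start of Kdm2b-216 read 18.5 and 19.9 CPM in Ctrl and 20.9 and 25.2 CPM in KO. There both KO libraries were the higher, with a log2 fold change of 0.26 (SE 0.39) and an adjusted p of 0.998 in edgeR. The protein-coding start 89.5 kb into the gene, whose window is the CG-rich one above, lay under no peak.

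Among the demethylases of the higher methylation states, Kdm4a (ENSMUSG00000033326.15, chr4:118136957-118180043, minus strand) had 1 promoter peak, 18 gene body peaks and 1 flanking peak. Its promoter peak (chr4:118178525-118180895) read 48.4 and 43.2 CPM in Ctrl and 56.3 and 49.6 CPM in KO, where KO was the higher in each pairing of libraries, and a promoter log2 fold change of 0.21 (SE 0.27, adjusted p of 1.0 in edgeR). The peak at chr4:118160426-118162916, which covers the start of the non-coding transcript Kdm4a-206 and overlaps an exon, held 47, 128, 134 and 298 counts in Ctrl 1, Ctrl 2, KO 1 and KO 2. These were 21.3 and 38.1 CPM in Ctrl and 49.9 and 71.4 CPM in KO, or 29.7 ± 11.9 and 60.7 ± 15.2 CPM (SD, n = 2). Both KO libraries were above both Ctrl libraries. The peak lies 1162 bp from a start of the non-coding gene Gm23382. The log2 fold change was 1.02 (SE 0.32). Its unadjusted p was 0.00134 in edgeR's fit over all peaks, and its adjusted p was 0.998.

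The inner Kdm4a peak took a larger part of the gene body counts in KO, at 34.7% and 40.8% against 15.8% and 21.7% in Ctrl. The whole gene body read 135 and 175 CPM in Ctrl and 144 and 175 CPM in KO. Of the 16 tested gene body peaks, 12 were lower and 4 higher in KO, where 42.9% of all tested gene body peaks were higher. One of the lower ones, at chr4:118167667-118169057, read 4.98 CPM in Ctrl 1, 19.0 CPM in Ctrl 2, 6.33 CPM in KO 1 and 5.03 CPM in KO 2, and Ctrl 2 alone stood apart. Its log2 fold change of -1.12 (SE 0.55, adjusted p of 0.998 in edgeR) became 0.18 without Ctrl 2. The inner peak kept its direction when any library was left out, with log2 fold changes between 0.67 and 1.52, although its unadjusted p in edgeR was 0.0995 without Ctrl 1 and 0.105 without KO 2.

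**Figure D2:**
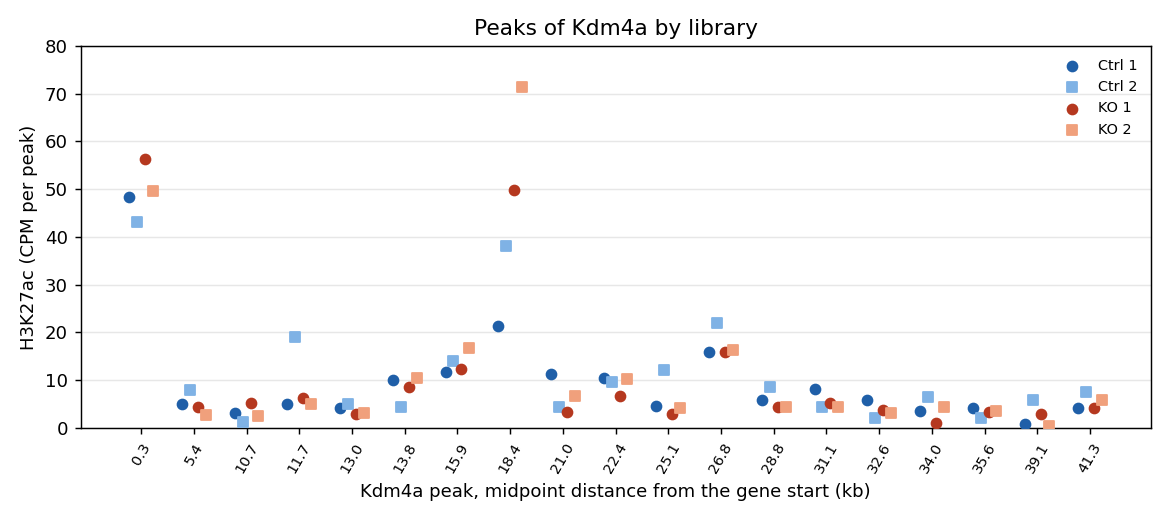
The promoter peak and the 18 gene body peaks of Kdm4a in order from the 5′ end. Each point is the CPM of one peak in one library (circles number 1, squares number 2; blue Ctrl, red and orange KO). At 18.4 kb both KO libraries lie above both Ctrl libraries, and at 11.7 kb Ctrl 2 lies apart from the other libraries.

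Kdm4b (ENSMUSG00000024201.12, chr17:56326062-56402870, plus strand) had 4 promoter peaks, of which the strongest (chr17:56325102-56326040) ends 34 bp before the nearest start used for the classification. It read 26.2 and 16.7 CPM in Ctrl and 33.2 and 18.2 CPM in KO, with number 1 above number 2 in both genotypes. A gene body peak nearby (chr17:56329277-56331442) read 13.6, 19.6, 13.4 and 21.1 CPM with the reverse order of numbers. A thin intron peak at chr17:56333679-56334332 held 1 and 4 counts in Ctrl and 21 and 15 counts in KO, and passed the count minimum only through KO. The fitted difference was 2.64 on the log2 scale (SE 1.08; adjusted p of 0.998 in edgeR). Without either KO library the peak fell below the minimum.

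Kdm4c (ENSMUSG00000028397.13, chr4:74242497-74405860, plus strand) was the longest of the 8 genes. Its one promoter peak (chr4:74251096-74253496) also covers a start of the non-coding gene A230083N12Rik, and counts there cannot be divided between the genes. The peak read 65.1 and 41.1 CPM in Ctrl and 59.2 and 37.4 CPM in KO, a log2 fold change of -0.14 (SE 0.32). Its 13 gene body peaks together read 48.4 and 28.3 CPM in Ctrl and 34.7 and 15.6 CPM in KO, with overlap, and a log2 fold change of -0.62 (SE 0.44, adjusted p of 0.712 in edgeR). It was -0.19 without Ctrl 1 and -0.16 without KO 2. In both classes of peak the number 1 library was the higher one in each genotype.

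Per kb of promoter peak the members could be put in an order, but neighbours in it did not separate. The means over the 4 libraries were 22.5 CPM per kb for Kdm2b, 21.1 for Kdm4c, 20.8 for Kdm4a, 17.9 for Nsd1, 14.3 for Ash1l, 13.9 for Setd2, 13.8 for Kdm4b and 11.5 for Kdm2a. With all 5 of its promoter peaks counted, an alternative chosen after seeing the data, Ash1l read 10.7 CPM per kb and came last. The values of Kdm2b, Kdm4c and Ash1l include peaks that also cover a start of another gene. The median gene with a promoter peak read 12.6 CPM per kb. The ranges of all 7 neighbouring pairs overlapped, and only Nsd1 and Ash1l kept their order in all 4 libraries. Setd2 stood near the middle of all genes, at the 51.5 to 71.5 percentile depending on the library. Gene bodies were thinner, from 5.41 CPM per kb in Kdm4c, 6.22 in Ash1l and 6.43 in Setd2 to 11.3 in Kdm2a, against a median gene of 7.18. Kdm2a was the one member whose gene body level was close to its promoter level.

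**Figure D3:**
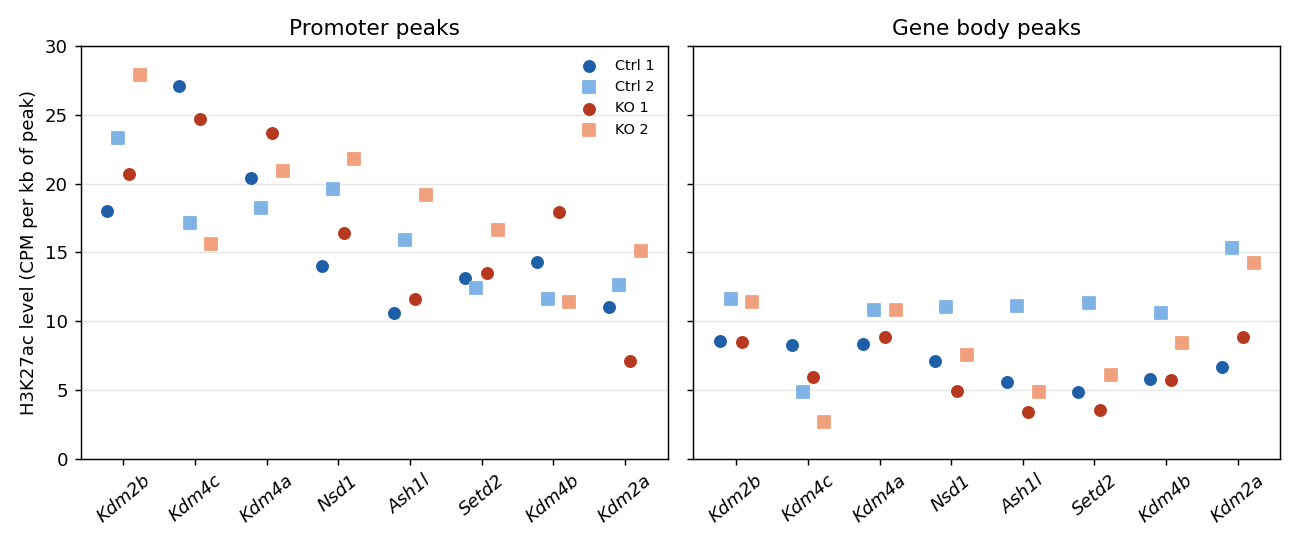
H3K27ac level of each member in each library, in CPM per kb of peak, for promoter peaks (left) and gene body peaks (right). Circles are number 1 and squares number 2 libraries, Ctrl in blue and KO in red and orange; genes are ordered by their mean promoter level, from 22.5 in Kdm2b to 11.5 in Kdm2a, with 2 of the 5 promoter peaks of Ash1l counted.

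The gene body held 5 peaks over annotated inner starts of the same gene, in Setd2, Kdm2a, Kdm2b and Kdm4a. They had a median width of 2411 bp, a median level of 14.7 CPM per kb and a median of 1.66 CG per 100 bp. The other 101 gene body peaks had medians of 441 bp, 6.84 CPM per kb and 0.84 CG per 100 bp. The Setd2 peak among the 5 was 376 bp wide, with 6.68 CPM per kb and 0.80 CG per 100 bp, and lay below all 3 of these medians. The densest gene body peak, that of Nsd1, was among the other 101, because starts of other genes were not counted. It lies 487 bp from a start of the non-coding gene Gm47816. The Kdm4a peak at 15.9 kb, also among the 101, covers a start of the non-coding gene Gm23382.

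The design compares H3K27ac with and without the second Setd2 allele, and here the comparison was made at the genes of the enzyme class of Setd2. None of the 90 tested member peaks was called in KO against Ctrl at an adjusted p under 0.05 in edgeR, against 0.00134% of all tested peaks, and DESeq2 called none either. At an unadjusted p under 0.05, edgeR listed 4 member peaks and DESeq2 listed 2, where 4.24% of all tested peaks passed in edgeR. Of the 4, 2 were higher and 2 lower in KO, beside 1.45% and 2.79% of all tested peaks. They are the inner Kdm4a peak, the thin Kdm4b peak, the Kdm4a peak that Ctrl 2 set apart, and a Kdm2b intron peak (chr5:122928008-122928912) with 8.14 and 7.14 CPM in Ctrl and 2.61 and 2.88 CPM in KO. The last had a log2 fold change of -1.46 (SE 0.73) and an adjusted p of 0.998. The number at an unadjusted p under 0.05 rose to 7 without Ctrl 1 and dropped to 1 without KO 1. The libraries of the 2 groups did not overlap in 32 of the 90 peaks, 10 above and 22 below in KO, beside 16.9% above and 16.4% below over all tested peaks. Those shares cover all classes of peak, whereas 66 of the 90 member peaks and 18 of the 22 below were gene body peaks. Over all tested gene body peaks 42.9% were higher in KO, beside 55.8% of promoter peaks. On both sides some passed the count minimum only through the higher group, such as the thin Kdm4b peak and Setd2 peak 6.

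By gene, promoters and gene bodies leaned in opposite directions. Promoter sums were higher in KO for 6 of the 8 genes, with Kdm2a and Kdm4c lower, and the median log2 fold change was 0.20, beside 58.0% of genes higher and a median of 0.07 over the 10532 genes tested. Gene body sums were lower in KO for 6 of the 8 genes, with Kdm2a at 0.07 and Kdm4a at 0.04, and the median was -0.39, beside 63.0% of genes lower and a median of -0.19 over 8686 genes. No member was called in either class by edgeR or DESeq2, nor was any other gene. At an unadjusted p under 0.05, only the gene body of Ash1l passed in edgeR (p of 0.0314), where 9.11% of all genes passed and 8.39% did so in the lower direction, and none of the members passed in DESeq2. No promoter passed, beside 1.37% of all genes. The groups did not overlap at 2 promoters, Setd2 and Kdm4a, both above in KO, beside 26.9% of all genes (17.5% above and 9.32% below). They did not overlap at 1 gene body, that of Ash1l, below in KO, beside 38.3% of all genes (9.9% above and 28.4% below).

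**Figure D4:**
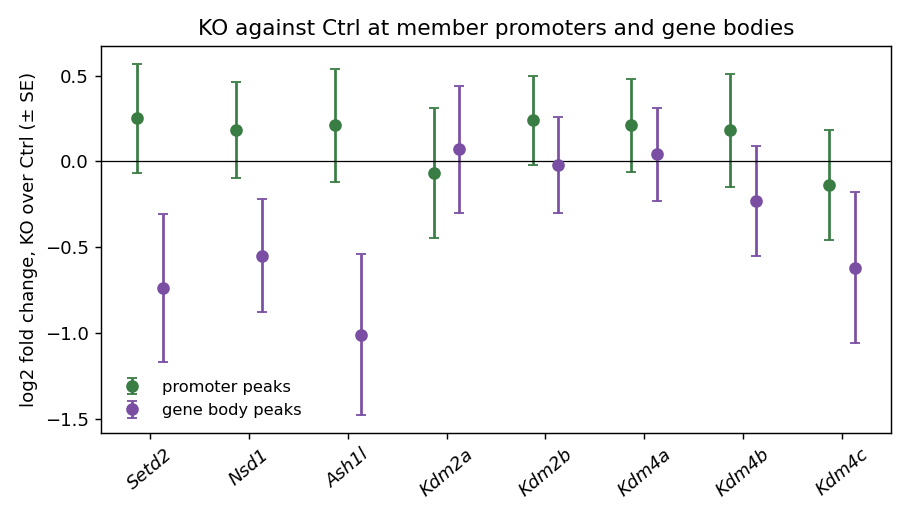
Log2 fold change of KO over Ctrl for promoter (green) and gene body (purple) sums of each member, with bars of 1 SE derived from the edgeR test. Promoter values lie between -0.14 and 0.25 and gene body values between -1.01 and 0.07, and no value was called after adjustment.

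The leans of gene bodies and promoters were shared by the whole table and moved with the scaling. With a scaling that depends on peak abundance, the median gene body over all genes went from -0.19 to 0.01. The gene bodies of Setd2, Nsd1, Ash1l and Kdm4c then had log2 fold changes of -0.43, -0.41, -0.67 and -0.37. Member promoters kept their signs under it, from -0.20 in Kdm4c to 0.22 in Setd2, with Nsd1 at 0.07 and Kdm2b at 0.02. With total counts as library sizes, the gene bodies of Kdm2a (-0.02) and Kdm4a (-0.04) were lower as well. The median promoter over all genes then went from 0.07 to -0.01. The same leans appear in the share of a gene's counts that lay in its promoter. For Setd2 that share was 50.9% (exact binomial 95% interval 41.3 to 60.4) and 29.7% (24.4 to 35.4) in Ctrl, and 59.3% (50.1 to 68.1) and 50.9% (44.8 to 57.0) in KO, intervals that cover counting error only. For Ash1l it was 57.3% and 50.3% in Ctrl and 70.6% and 73.6% in KO, and with all 5 promoter peaks 64.5% and 55.3% in Ctrl and 76.6% and 77.6% in KO. Both KO shares were above both Ctrl shares for 5 of the 8 members (Setd2, Nsd1, Ash1l, Kdm2b and Kdm4c; in Setd2 Ctrl 1 and KO 2 differ by less than the printed digits), beside 33.4% of 7884 genes, and for no member were both below, beside 7.67%. With 2 libraries a group, the exact two-sided permutation test cannot go below p = 0.333, which is its value for each of the 5.

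Summed over promoter and gene body, all 8 members separated by replicate number rather than by genotype. No member was called or had groups that did not overlap, beside 30.8% of 12709 genes without overlap. The number 2 library was above the number 1 library across both genotypes in 7 genes, beside 25.8% of all genes. Kdm4c went the other way, beside 26.4% of genes. In Kdm2a, number 1 over number 2 was 0.564 in Ctrl and 0.571 in KO, while in Kdm4c it was 1.64 and 1.77. The labels do not say what the numbers stand for, and the number 2 library was also the deeper one in each group. The part of depth in this pattern was not tested.

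**Figure D5:**
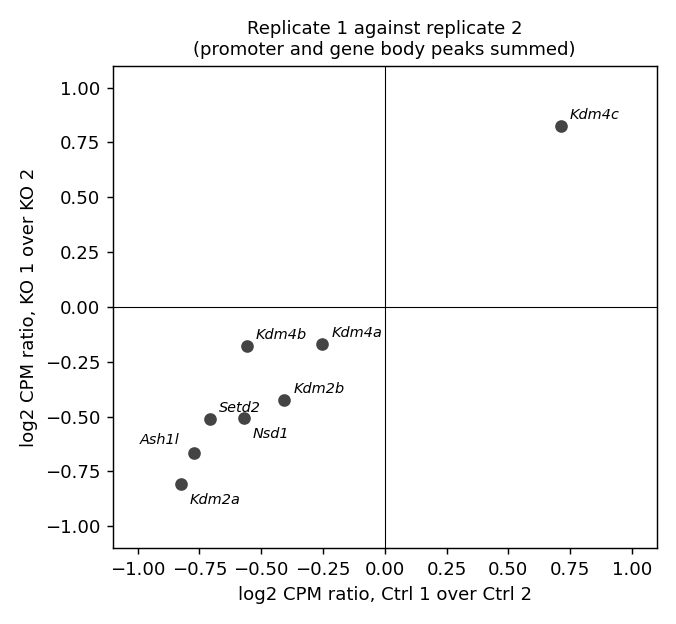
Log2 ratio of the number 1 to the number 2 library for each member, Ctrl on the horizontal axis and KO on the vertical axis, from the CPM summed over promoter and gene body. Kdm4c lies in the upper right and the other 7 genes lie in the lower left.

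The genes whose summed profile over the 4 libraries was closest to that of Setd2 were Lsm12, Letm1 and 4930404N11Rik, at Euclidean distances of 0.0361, 0.0399 and 0.0412 in centred log2 CPM among 9071 genes. Setd2 itself lay at -0.22, 0.48, -0.39 and 0.12 around its mean in Ctrl 1, Ctrl 2, KO 1 and KO 2. With 4 libraries, this likeness is a description of shared order and size only.

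Beyond the 8 members, 36 of 37 listed genes for other H3K36 enzymes, readers, elongation factors and histone H3.3 were tested, of which 18 were higher and 17 lower in KO. Their median log2 fold change was 0.02, beside -0.02 over all genes, and none was called by edgeR or DESeq2. At an unadjusted p under 0.05 there were 3 in edgeR and 2 in DESeq2, beside 3.23% of all genes. Nsd2, a dimethyltransferase of H3K36, read 77.4 and 135 CPM in Ctrl and 57.4 and 64.5 CPM in KO, with both KO libraries below and a log2 fold change of -0.80 (SE 0.31, adjusted p of 1.0 in edgeR). Smyd2, a lysine methyltransferase, read 82.8 and 92.0 CPM in Ctrl and 64.5 and 47.7 CPM in KO, also without overlap (log2 fold change of -0.65, SE 0.27). Hnrnpl, which encodes an RNA-binding partner of SETD2, read 142 and 192 CPM in Ctrl and 217 and 321 CPM in KO, with both KO libraries above (log2 fold change of 0.69, SE 0.27). Dnmt3a, a DNA methyltransferase that reads methylated H3K36, overlapped between the groups at 380, 495, 410 and 539 CPM.

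By role, 2 of the 5 other writers were higher and 3 lower, all 3 other erasers were higher by at most 0.11 on the log2 scale, and 6 of the 16 tested readers were higher and 9 lower, with Glyr1 equal to 2 decimals. The 10 elongation factors split into 5 higher and 5 lower, and both H3.3 genes were higher. For the 37 genes, the groups did not overlap in 5 above and 9 below in KO, beside 13.2% above and 17.6% below over all genes.

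The labelled cell type was checked at its markers. All 8 Treg and T cell markers (Foxp3, Il2ra, Ctla4, Ikzf2, Ikzf4, Tnfrsf18, Cd4 and Cd3e) had peaks, which summed to 2610 and 2890 CPM in Ctrl and 3110 and 3660 CPM in KO. Of these, 7 were higher in KO, beside 48.2% of all genes, and in 6 both KO libraries were above both Ctrl ones, beside 13.2%. No marker was called, and 1 (Ctla4) had an unadjusted p under 0.05 in edgeR, beside 3.23% of all genes. In bulk libraries, fewer cells of a type and less signal per cell cannot be told apart. Beside these markers, summed CPM of other lineages was low, from 4.17 to 8.6 for CD8 T cells and 14.5 to 30.1 for B cells. Myeloid markers read 20.6 to 37.5 CPM and epithelial markers 43.5 to 69.3 CPM. The epithelial range overlapped that of Setd2 summed over promoter and gene body, 45.8 to 84.2 CPM. Cd8a, Ms4a1, Lyz2 and Itgam had no peak. The stromal list read 560 to 1040 CPM, nearly all of it in Pecam1, a gene that T cells also express, while Col1a1 read at most 5.65 CPM. The part of any of these in the members' values was not tested.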

How the data were processed

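The authors deposited one table of raw counts per merged H3K27ac peak for 4 libraries; an IgG library has no column in it. Per the labels and the study's methods, reads were aligned to mm10 with Bowtie2, duplicates were removed, MACS2 called peaks against IgG, and bedtools merged and counted them; versions are not given in the sources used here. Peaks were annotated with GENCODE M21. Peaks that reached 10 counts in 2 or more libraries were tested with edgeR 4.0.16 (quasi-likelihood, TMM factors, R 4.3.3), with Benjamini-Hochberg adjustment over all 74550 tested peaks; gene sums of promoter and gene body peaks used the same factors, with adjustment over all genes tested. Each SE was derived from the edgeR test, as the size of the log2 fold change divided by the square root of the F statistic. DESeq2 1.42.0 was the main alternative. A simulation at this depth gave every peak the same relative spread beyond counting error and no effect of the replicate number, unlike the real libraries. Of 65561 simulated peaks that passed the count minimum, 169 had 4-fold changes, and 9.47% of these were recovered at an adjusted p under 0.05 in edgeR.

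The members and gene lists (H3K36 pathway genes and markers) were chosen with earlier results of these data known. Named were all members, each member's promoter peak with the most counts, all peaks of Setd2, member peaks with an unadjusted p under 0.05, the 5 gene body peaks with the most counts, pathway genes with an unadjusted p under 0.05 with Nsd2 and Dnmt3a, and the 3 genes nearest to Setd2. The gene body peaks of Nsd1 and Ash1l described singly were chosen after their values were seen. Motifs were searched on both strands. No protein sequences were compared.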

Additional observations from a re-analysis of the deposited data

How the results depend on the processing

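No member peak or member gene sum was called under the other scalings, count minimums, promoter limits and DESeq2, or with any library left out. The exception was a fit with the replicate number as a block, which called 1 member peak (the inner Kdm4a peak, log2 fold change 1.04, adjusted p = 0.0019 in edgeR), 2 gene body sums (Nsd1 at -0.55, adjusted p = 0.0359, and Ash1l at -0.98, adjusted p = 0.0462) and 4 pathway genes. Over all features the block called 152 peaks higher and 59 lower against 1 and 0 without it, 390 and 501 gene sums against 0 and 0, and 218 and 681 gene body sums against 0 and 0. The study's methods describe the mice as littermates, but neither they nor the labels say that equal numbers share a litter or a batch. With 2 pairs the data cannot settle it. The difference between number 1 and number 2 had a correlation of 0.257 between Ctrl and KO over 74550 peaks.

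Signs of small values changed as follows (log2 fold change). With total counts as library sizes, the value was -0.03 for the Kdm4b peak at 4.3 kb, -0.07 for Kdm2a summed, -0.02 for the Kdm2a gene body and -0.04 for the Kdm4a gene body. With the abundance-dependent scaling the Kdm4b peak read -0.01. With at least 50 counts it read -0.07, and Kdm2a, Kdm2b and Kdm4a summed read -0.11, -0.01 and -0.04, with -0.06 and -0.08 for the gene bodies of Kdm2a and Kdm4a. With no minimum the Kdm2b gene body read 0.04. Member peaks at an unadjusted p under 0.05 numbered 9 with no minimum, 2 with at least 50 counts and 11 with the block.

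Leaving out one library at a time gave these ranges. The direction was kept in the promoters of Setd2 (0.06 to 0.36) and Kdm4a (0.10 to 0.28) and in the gene bodies of Nsd1 (-0.93 to -0.18), Ash1l (-1.42 to -0.42) and Kdm4c (-1.31 to -0.16). The others changed sign. Summed genes ran from -0.61 to 0.12 (Setd2), -0.52 to 0.12 (Nsd1), -0.65 to 0.21 (Ash1l), -0.49 to 0.51 (Kdm2a), -0.15 to 0.34 (Kdm2b), -0.05 to 0.22 (Kdm4a), -0.37 to 0.20 (Kdm4b) and -0.80 to 0.07 (Kdm4c). The other promoters ran from -0.08 to 0.46 (Nsd1), -0.24 to 0.56 (Ash1l), -0.77 to 0.34 (Kdm2a), -0.03 to 0.44 (Kdm2b), -0.19 to 0.44 (Kdm4b) and -0.52 to 0.22 (Kdm4c). The other gene bodies ran from -1.23 to 0.02 (Setd2), -0.41 to 0.80 (Kdm2a), -0.28 to 0.23 (Kdm2b), -0.14 to 0.25 (Kdm4a) and -0.60 to 0.29 (Kdm4b). Of the named peaks, those that changed sign ran from -0.13 to 0.52 (Setd2 peak 2), -0.99 to 0.14 (peak 3), -1.57 to 1.02 (peak 8), -0.68 to 0.54 (peak 9), -0.63 to 0.64 (inner Kdm2a peak), -0.01 to 0.47 (inner Kdm2b domain), -1.76 to 0.18 (Kdm4a peak at 11.7 kb) and -0.35 to 0.37 (Kdm4b peak at 4.3 kb). Few counts in most gene body peaks limit what 2 libraries a group can show.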
